A study of Mus musculus with 32 samples.

Results

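Interferon beta and the 4 chains of the receptors for type I interferon and interferon gamma were followed in LPS-stimulated macrophages with and without Nur77. These genes are Ifnb1, Ifnar1, Ifnar2, Ifngr1 and Ifngr2, and they were chosen for their function, as 5 of the 25067 genes named in the count table. For each gene, the RefSeq row with the highest mean count was used. All 5 were among the 11186 genes tested.

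RNA-seq was performed on BMDMs, macrophages grown for 7 days from the bone marrow of male C57Bl6/J mice aged 6 to 12 weeks in medium conditioned by L929 cells. BMDM-WT came from wild-type littermates. BMDM-Nur77-KO came from whole-body Nur77 knockout mice, in which Cre under the human cytomegalovirus promoter had deleted the loxP-flanked Nr4a1 locus, and which were then bred free of Cre, although the sample labels still give the genotype as cre. Each genotype was measured without LPS (0 h) and after 1, 5 and 18 h of 100 ng/ml LPS, with 4 libraries in each of the 8 groups and 32 in all. The replicates are described as separate wells, with no number of animals, so p-values measure the spread between wells.

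LPS, a component of the outer membrane of Gram-negative bacteria, binds TLR4, which signals through 2 branches. The TRIF branch leads through the kinase TBK1 to the transcription factor IRF3, which, together with NF-kB, switches on Ifnb1. The secreted interferon beta binds the receptor made of IFNAR1 and IFNAR2 on the same and on neighbouring cells. The kinases TYK2 and JAK1 then activate a transcription factor complex that holds STAT2 and IRF9 and switches on interferon-stimulated genes. Interferon gamma, made mainly by T cells and NK cells, uses another receptor, in which IFNGR1 binds the ligand and IFNGR2 completes the complex, with JAK1 and JAK2 downstream. Macrophages carry both receptors.

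The promoter of Ifnb1 is one of the best studied in innate immunity, because factors of several families bind it side by side. Ifnb1 (NM_010510) lies on the minus strand at chr4:88522025-88522794 of GRCm38 (mm10). The stretch from base -150 to base -71 before its annotated start (chr4:88522865-88522944, minus strand, RefSeq GRCm38.p6) is shown here for the letters that resemble the sites of these factors:
Ifnb1 promoter stretch: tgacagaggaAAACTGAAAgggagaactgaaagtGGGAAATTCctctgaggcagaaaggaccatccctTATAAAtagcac
The capitals mark, in order, a match to the interferon-stimulated response element (ISRE, letters AAANNGAAA), the element bound by IRF factors, a match to the kappa B site of NF-kB (GGGNNNTTC), and a TATA box (TATAAA). Each motif was searched on both strands of the 250 bases before the start. The ISRE letters lie from base -140 to -132, the kappa B letters from -116 to -108 and the TATA letters from -82 to -77, with a further TATA match from -210 to -205. Of the 27025 promoters of the same length in the RefSeq table, 9.52% hold the ISRE letters, 11.8% the kappa B letters and 13% the TATA letters.

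The receptor genes share little of this. The 250 bases before Ifnar1 hold a kappa B match from base -11 to -3, those before Ifngr2 a kappa B match on the minus strand from base -74 to -66, and those before Ifnar2 a match to the letters of a GAS element (TTCNNNGAA, in 7.18% of promoters) from base -214 to -206. For Ifnar1, the window (chr16:91484965-91485214) ends inside the span of the row used, because the promoter table takes a later start. The window before Ifngr1 held no match to any of the motifs searched. None of the 5 windows held the letters of an AP-1 site (TGANTCA, 6.87% of promoters), a CRE (TGACGTCA, 1.62%) or the Nur77 element NBRE (AAAGGTCA, 1.31%). The search took exact letters only, so it cannot tell whether a window holds a site with other letters. The Ifnb1 window was poor in GC at 39.6%, while the receptor windows held 65.6% (Ifnar1), 54% (Ifnar2), 59.2% (Ifngr1) and 74% (Ifngr2), with a median of 52% over all promoters.

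Of the receptor genes, 3 are neighbours on chromosome 16. Ifnar2 (NM_010509) lies at chr16:91372783-91405589, Ifnar1 (NM_010508) at chr16:91485032-91510523 and Ifngr2 (NM_008338) at chr16:91547059-91564007. Il10rb, which encodes a chain shared by the receptors for IL-10 and interferon lambda, lies between Ifnar2 and Ifnar1. Ifngr1 (NM_010511) lies apart from them, at chr10:19591949-19610229.

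Levels are given in CPM, counts scaled by edgeR to the TMM-normalized library size, as mean ± SD of 4 libraries. The totals over the rows used were 8742362 to 15780926 counts per library. Nr4a1, the deleted gene, was at 1 h at 438 ± 60.3 CPM in BMDM-WT and 191 ± 40.0 CPM in BMDM-Nur77-KO, and before LPS at 19.8 ± 4.36 and 5.27 ± 1.19 CPM, without overlap of the groups at either time. At 5 h it was at 0.928 ± 0.12 and 0.312 ± 0.26 CPM, and at 18 h the genotypes overlapped, at 0.174 to 0.476 CPM in BMDM-WT and 0 to 0.447 CPM in BMDM-Nur77-KO. At 1 h, Nr4a1 spanned 360 to 486 CPM in BMDM-WT and 147 to 243 CPM in BMDM-Nur77-KO. Nr4a1 reads thus remained in the knockout, and the table does not separate the exons removed from those kept. The macrophage markers (8 of 8 tested, Adgre1 and Csf1r among them) summed to 11015 to 18955 CPM in a library, while the summed markers of T and NK cells, fibroblasts and erythroid cells did not pass 1.87 CPM in any library, those of B cells 4.78 CPM and those of neutrophils 36.8 CPM. Dendritic cell markers summed to 1.21 to 26.8 CPM and plasmacytoid dendritic cell markers to 73.4 to 721 CPM, the latter highest at 5 h in both genotypes. At 5 h, replicate 1 of BMDM-Nur77-KO stood apart from its group. Its mean correlation with the other libraries of the group was 0.964, against 0.979 to 0.985 for those, and the main results that rest on 5 h are also given with that library left out. Replicate 4 of BMDM-Nur77-KO at 18 h had a mean correlation of 0.979, against 0.988 to 0.989 for the others of its group. The calls of the 5 genes between the genotypes at 18 h held with any 1 library left out. The list counts at 18 h were not recomputed without this replicate 4.

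Ifnb1, the ligand, was silent before LPS and highest at 1 h among the 4 times sampled. It was then at a low level that differed between the genotypes at 18 h. At 0 h, it had 0 counts in all 8 libraries, where 3 counts, the limit that a count of 0 allows, correspond to 0.208 CPM in BMDM-WT and 0.234 CPM in BMDM-Nur77-KO. At 1 h, the 4 BMDM-WT libraries held 22.9, 19.7, 19.0 and 20.3 CPM and the 4 BMDM-Nur77-KO libraries 26.5, 19.5, 20.3 and 26.8 CPM. In both genotypes this was the highest level of the times sampled. No time between 1 and 5 h was measured, so the true maximum of each genotype is not known. Of the knockout libraries, 2 lay above all wild-type libraries and the rest did not. Against the limit of 3 counts per library, the level at 1 h was at least 98.4-fold higher in BMDM-WT, and in BMDM-Nur77-KO at least 99.6-fold higher.

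By 5 h, most of the Ifnb1 signal was gone. The libraries held 4.76, 4.63, 3.98 and 2.71 CPM in BMDM-WT and 3.68, 5.52, 4.96 and 4.11 CPM in BMDM-Nur77-KO, from 23 to 66 counts each. Ifnb1 fell by 2.35 (SE 0.16) on the log2 scale between 1 and 5 h in BMDM-WT and by 2.34 (SE 0.15) in BMDM-Nur77-KO, to 0.197 and 0.198 of the level at 1 h. The groups overlapped at 5 h.

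At 18 h the genotypes separated. Ifnb1 was at 2.103, 1.90, 2.43 and 2.16 CPM in BMDM-WT and at 5.72, 5.07, 5.03 and 5.95 CPM in BMDM-Nur77-KO, from 20 to 28 and from 57 to 73 counts. Every knockout library was above every wild-type library. The level in BMDM-Nur77-KO was 2.52-fold that in BMDM-WT (log2 fold change 1.33, SE 0.18, adjusted p = 4.4e-06, from the quasi-likelihood test of edgeR, adjusted over all genes tested by Benjamini-Hochberg). In these bulk samples, a different share of cells that make Ifnb1 and a different amount of its RNA per cell cannot be told apart.

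**Figure D1:**
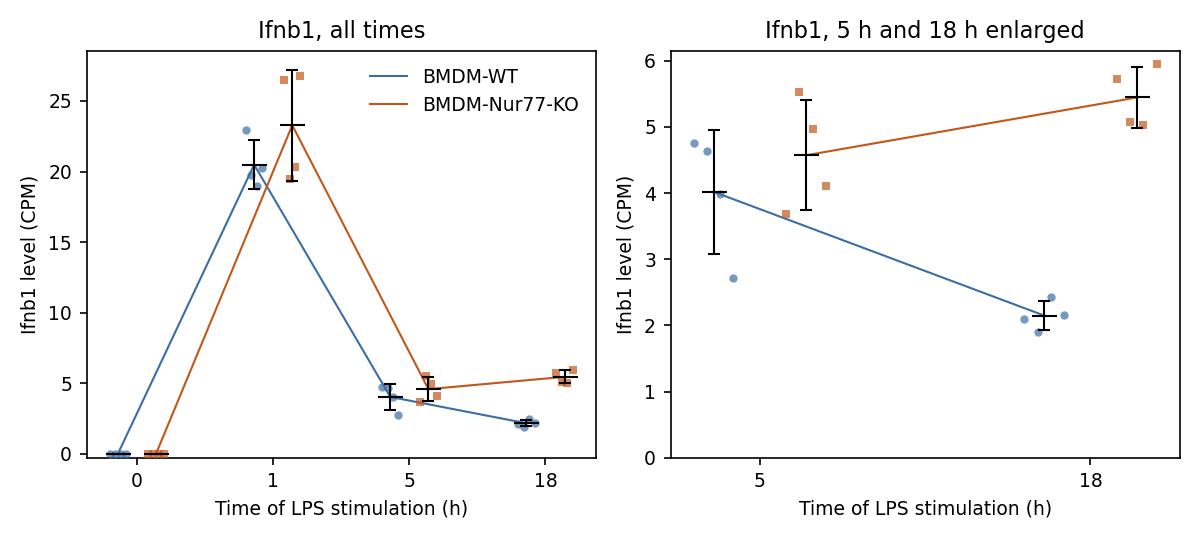
Level of Ifnb1 in CPM (y axis, linear) at 0, 1, 5 and 18 h of LPS (x axis, not to scale in time), with the times 5 and 18 h enlarged on the right. Points are libraries, bars the mean ± SD of 4 libraries, blue circles BMDM-WT and orange squares BMDM-Nur77-KO. Of the times sampled, 1 h is the highest in both genotypes. At 18 h, the knockout libraries sit at 5.03 to 5.95 CPM, above the 1.90 to 2.43 CPM of the wild type.

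The difference at 18 h came with different courses after 5 h. In BMDM-WT, Ifnb1 fell by 0.90 (SE 0.20) on the log2 scale from 5 to 18 h (adjusted p = 2.7e-04). In BMDM-Nur77-KO, the change was 0.24 (SE 0.16) and did not pass the test (adjusted p = 0.20), but with library totals it was 0.41 and called (adjusted p = 0.032). The difference between these changes, a comparison added after the data were seen, was 1.14 (SE 0.25, adjusted p = 0.0031), and 1.05 (adjusted p = 0.0058) when knockout replicate 1 of 5 h was left out. An interaction relative to 0 h could not be had for Ifnb1, since both groups were at 0 counts there.

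Markers of other cells that can make interferon beta were read beside this result. The summed level of 5 plasmacytoid dendritic cell markers, 2 of them high enough to be tested, was at 18 h 80.1 to 100 CPM in BMDM-WT and 97.6 to 150 CPM in BMDM-Nur77-KO. Siglech and Klk1, which are among them, were at 0 in all libraries of BMDM-WT at 18 h. Klk1 was also at 0 in all libraries of every other group except BMDM-Nur77-KO at 18 h. The summed level of 4 dendritic cell markers, 2 of them tested, was at 18 h 5.18 to 7.12 CPM in BMDM-WT and 13.4 to 21.7 CPM in BMDM-Nur77-KO. Flt3, among them, was at 0 in all libraries of BMDM-Nur77-KO at 18 h, as in BMDM-WT at 5 h. The summed macrophage markers were lower in BMDM-Nur77-KO at this time, at 11015 to 12658 CPM against 14036 to 14693 CPM. These sums did not overlap between the genotypes for dendritic cells and macrophages, at a time when 21.7% of all genes were called. The sums also changed with LPS. From 0 to 5 h in BMDM-WT, the median rose from 1.24 to 16.0 CPM for dendritic cell and from 80.1 to 413 CPM for plasmacytoid dendritic cell markers. Whether the sums follow the share of cells, and their part in the difference of Ifnb1, was not tested.

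Among the receptor chains, those of the type I interferon receptor rose with LPS, while those of the interferon gamma receptor had moved in opposite directions by 5 h. Ifnar1, the chain that carries TYK2, was at 165, 156, 171 and 179 CPM in BMDM-WT at 0 h and at 176, 169, 175 and 175 CPM in BMDM-Nur77-KO. At 5 h, it reached 619, 613, 628 and 618 CPM in BMDM-WT and 587, 580, 580 and 566 CPM in BMDM-Nur77-KO. This was the highest level of the times sampled in both genotypes. All wild-type libraries were above all knockout libraries by a small margin that did not pass the test (log2 fold change -0.10, SE 0.051, adjusted p = 0.15).

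At 18 h, Ifnar1 had come down again, further in the knockout. The libraries held 375, 390, 391 and 372 CPM in BMDM-WT and 314, 315, 289 and 309 CPM in BMDM-Nur77-KO, again without overlap. The level in BMDM-Nur77-KO was 0.804 of that in BMDM-WT (log2 fold change -0.31, SE 0.051, adjusted p = 2.4e-05). The order of the 8 groups ran from BMDM-WT at 5 h over BMDM-Nur77-KO at 5 h, BMDM-WT at 18 h and BMDM-Nur77-KO at 18 h to the groups at 1 h and 0 h. The first 4 of these groups were each apart from the next, while the genotypes overlapped at 1 h and at 0 h.

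Ifnar2, the chain that carries JAK1 and binds interferon most tightly, rose in the same way without a difference between the genotypes that passed the test. Its level was 107 ± 7.73 CPM in BMDM-WT at 0 h, then 116 ± 9.04 CPM (1 h), 272 ± 13.6 CPM (5 h) and 236 ± 4.84 CPM (18 h). In BMDM-Nur77-KO it was 98.5 ± 3.61, 107 ± 8.16, 278 ± 14.2 and 229 ± 23.0 CPM. The genotypes overlapped at each of the 4 times, and in the order of the 8 groups only 2 of the 7 neighbouring pairs were apart, those between 5 and 18 h and between 18 and 1 h.

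The table also has a shorter Ifnar2 row (NM_001110498, 1099 bases against 3047 in the row used), and both share reads. The ratio of its counts to those of the longer row was 0.715 ± 0.029 in BMDM-WT at 0 h, then 0.744 ± 0.019 (1 h), 0.582 ± 0.011 (5 h) and 0.685 ± 0.022 (18 h). In BMDM-Nur77-KO the ratio was 0.768 ± 0.0069, 0.726 ± 0.013, 0.663 ± 0.080 and 0.723 ± 0.041. The lowest ratio was thus at 5 h in both genotypes, and knockout replicate 1 of 5 h, at 0.777, was far above the other three libraries of its group at 0.599 to 0.662.

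Ifngr1, the ligand-binding chain of the interferon gamma receptor, was the one member below its level of 0 h at 5 and 18 h, after a higher level at 1 h. At 0 h, the libraries held 227, 222, 269 and 237 CPM in BMDM-WT and 288, 262, 273 and 275 CPM in BMDM-Nur77-KO, and at 1 h the means were 320 ± 20.8 and 317 ± 18.6 CPM. At 5 h, it was down to 88.2, 89.4, 91.3 and 92.0 CPM in BMDM-WT and 85.6, 121, 125 and 113 CPM in BMDM-Nur77-KO. Replicate 1 of the knockout was below all wild-type libraries, and the other three were above them.

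Between 5 and 18 h, Ifngr1 moved apart in the genotypes. It rose to 120, 118, 126 and 114 CPM in BMDM-WT and fell to 77.4, 69.9, 68.8 and 75.0 CPM in BMDM-Nur77-KO. No knockout library reached the lowest wild-type library at 18 h. The level in BMDM-Nur77-KO was 0.609 of that in BMDM-WT (log2 fold change -0.72, SE 0.085, adjusted p = 1.3e-07). BMDM-Nur77-KO at 18 h was the lowest of the 8 groups and apart from the next, BMDM-WT at 5 h, and the highest group, BMDM-WT at 1 h, was at 4.40 times its level.

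Ifngr2, the partner chain, rose with LPS, and no difference between the genotypes passed the test. Its level was 111 ± 7.95 CPM in BMDM-WT at 0 h, then 120 ± 5.38 CPM (1 h), 262 ± 8.09 CPM (5 h) and 319 ± 7.67 CPM (18 h). In BMDM-Nur77-KO it was 112 ± 4.78, 127 ± 6.57, 249 ± 6.13 and 332 ± 5.98 CPM. It was the one receptor chain with its highest level at 18 h. At 5 h, all knockout libraries (240 to 253 CPM) were just below all wild-type libraries (254 to 271 CPM), a log2 fold change of -0.07 (SE 0.057, adjusted p = 0.34).

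**Figure D2:**
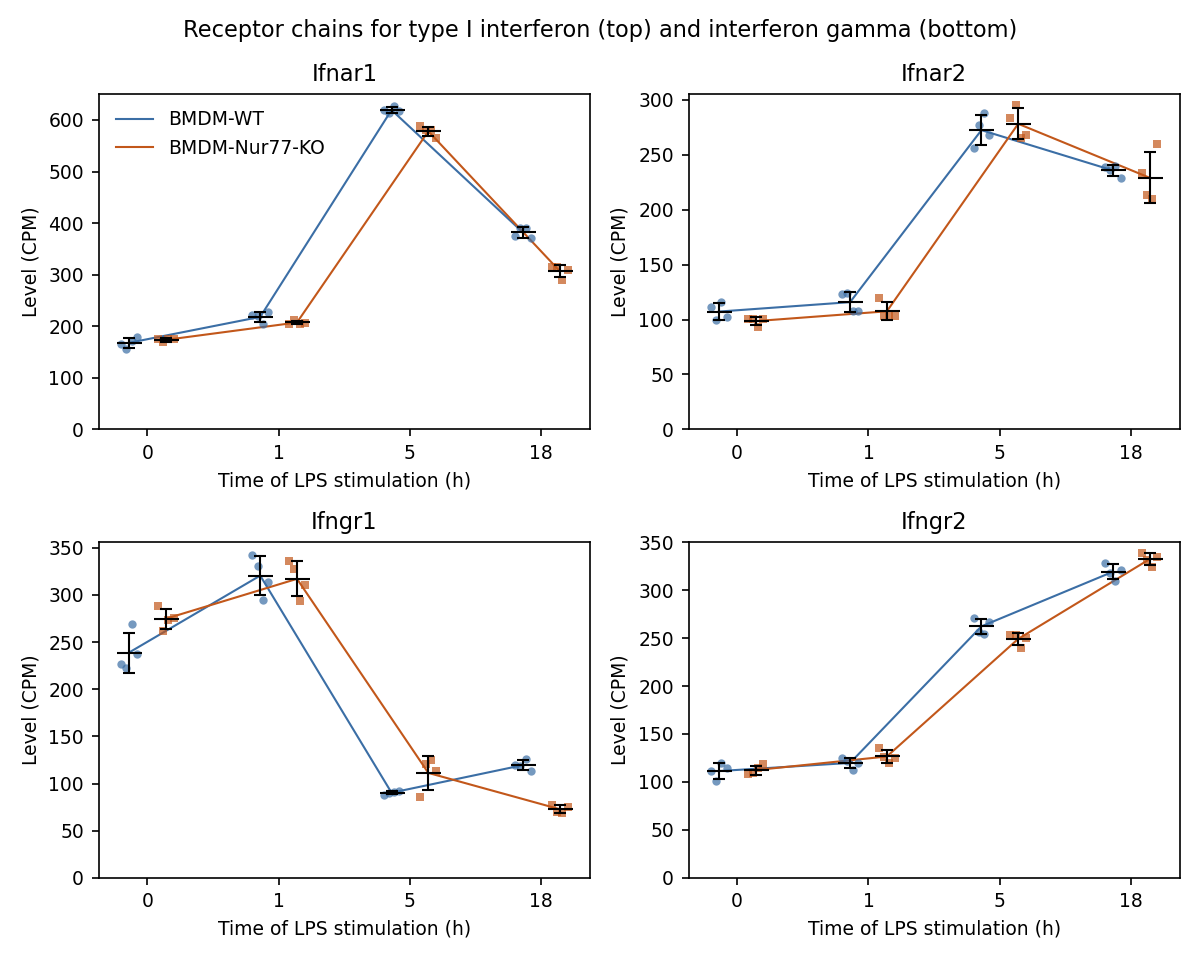
Level of the receptor chains in CPM (y axes, linear, from 0) at 0, 1, 5 and 18 h of LPS (x axes, not to scale in time). Points are libraries, bars the mean ± SD of 4 libraries, blue circles BMDM-WT and orange squares BMDM-Nur77-KO. Of the times sampled, Ifnar1 and Ifnar2 are highest at 5 h and Ifngr2 at 18 h. Ifngr1 drops to 68.8 to 77.4 CPM in the knockout at 18 h against 114 to 126 CPM in the wild type.

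The response to LPS was tested in each genotype against 0 h. In BMDM-WT at 1 h, 3 of the 5 genes were called, all higher, against a background of 20.3% of all genes tested: Ifnb1, Ifnar1 (log2 fold change 0.38, SE 0.052, adjusted p = 9.7e-07) and Ifngr1 (0.42, SE 0.083, adjusted p = 2.6e-04). At 5 h, all 5 were called, 4 higher and Ifngr1 lower, against 70.1% of all genes. The log2 fold changes were 1.88 (SE 0.053) for Ifnar1, 1.35 (SE 0.074) for Ifnar2, -1.40 (SE 0.086) for Ifngr1 and 1.24 (SE 0.058) for Ifngr2. At 18 h, all 5 were again called in the same directions, against 66.4% of all genes, with 1.19, 1.14, -0.998 and 1.52 for the same 4 chains.

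The same tests were made in BMDM-Nur77-KO. At 1 h, 3 of 5 were called against 12.3% of all genes, namely Ifnb1, Ifnar1 (log2 fold change 0.26, SE 0.052, adjusted p = 4.5e-04) and Ifngr2 (0.17, SE 0.057, adjusted p = 0.045). The call of Ifngr2 was lost under several alternatives. At 5 h, all 5 were called against 71.4% of all genes, with 1.74 for Ifnar1, 1.497 for Ifnar2, -1.30 for Ifngr1 and 1.15 for Ifngr2. Without replicate 1 at 5 h, these values were 1.73, 1.49, -1.20 and 1.14. At 18 h, all 5 were called against 69.5% of all genes, with 0.82, 1.22, -1.92 and 1.56. Ifnb1 was at least 19.3-fold and at least 10.3-fold above the limit of 3 counts at 5 and 18 h in BMDM-WT, and at least 19.6-fold and at least 23.3-fold in BMDM-Nur77-KO. With library totals in place of TMM, the median of all genes moved by -0.62 at 5 h and -0.36 at 18 h in BMDM-WT and by -0.61 and -0.44 in BMDM-Nur77-KO, and the members kept their directions and calls at these times.

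The steps between LPS times separate the chains further. From 1 to 5 h, all 5 genes were called in both genotypes, 3 higher (Ifnar1, Ifnar2, Ifngr2) and 2 lower (Ifnb1, Ifngr1), against 65.2% of all genes in BMDM-WT and 70.8% in BMDM-Nur77-KO. The drop of Ifngr1 in this step was 1.83 on the log2 scale in BMDM-WT (fold change 0.282) and 1.51 in BMDM-Nur77-KO (fold change 0.351). From 5 to 18 h, all 5 were called in BMDM-WT against 69.4% of all genes, with Ifnar1 at -0.70, Ifnar2 at -0.21, which turned to 0.05 with library totals, Ifngr1 at 0.41 and Ifngr2 at 0.28. In BMDM-Nur77-KO, 4 of 5 were called in this step against 69.3% of all genes, with Ifnar1 at -0.91, Ifnar2 at -0.28, Ifngr1 at -0.61 and Ifngr2 at 0.42. With library totals, Ifnar2 in this step was at -0.11 and not called, and Ifnb1 was called. With knockout replicate 1 of 5 h left out, Ifngr1 was at -1.40 from 1 to 5 h and at -0.72 from 5 to 18 h. Ifngr1 thus rose in one genotype and fell in the other.

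The genotypes were compared at each time to ask how the absence of Nur77 changes these genes. At 0 h, none of the 4 receptor chains was called by edgeR, against 12.7% of all genes; Ifngr1 (log2 fold change 0.20, SE 0.083, adjusted p = 0.11) had an unadjusted p under 0.05 and was the 1 chain called by DESeq2. At 1 h, none of the 5 genes was called by edgeR or DESeq2 or had an unadjusted p under 0.05, against 6.53% of all genes called. The log2 fold change of Ifnb1 at 1 h, its highest time sampled, was 0.18 (SE 0.13, adjusted p = 0.54). At 5 h, 1 of 5 was called against 24.4% of all genes, Ifngr1, higher in BMDM-Nur77-KO by 0.30 (SE 0.085, adjusted p = 0.012). With knockout replicate 1 left out, the value was 0.41 (adjusted p = 1.3e-04), while in a fit to the 8 libraries compared alone it was 0.29 with an adjusted p of 0.21.

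At 18 h, 3 of the 5 genes were called against 21.7% of all genes, Ifnb1 higher and Ifnar1 and Ifngr1 lower in BMDM-Nur77-KO. In the same comparison, Ifnar2 was at -0.04 (SE 0.072, adjusted p = 0.73) and Ifngr2 at 0.06 (SE 0.056, adjusted p = 0.51). In each receptor, therefore, the chain named 1 was lower and the chain named 2 did not pass the test.

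**Figure D3:**
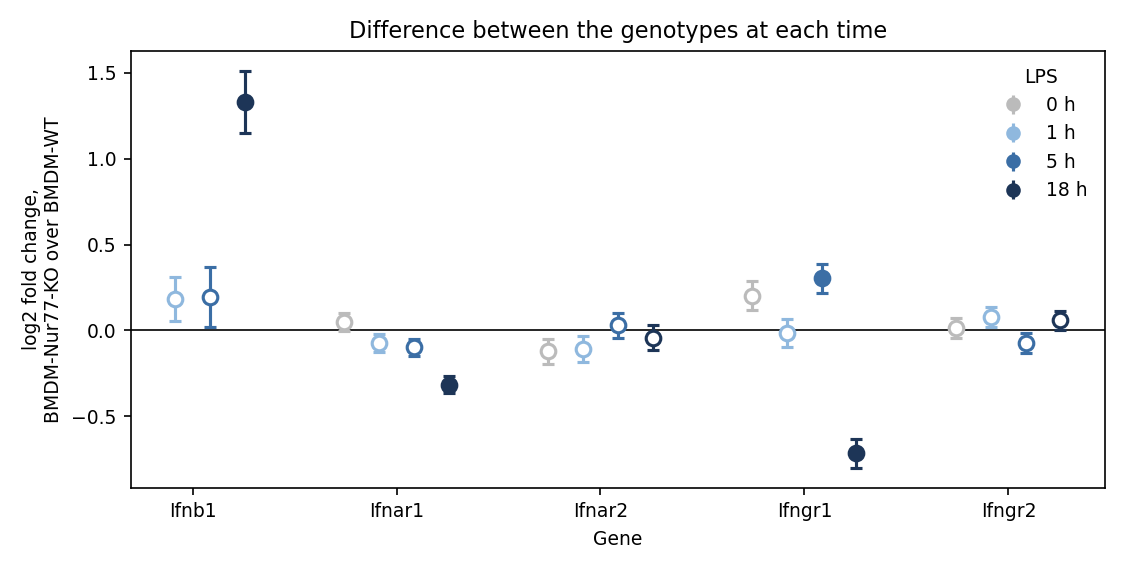
Log2 fold change of BMDM-Nur77-KO over BMDM-WT (y axis) for the 5 genes (x axis) at 0, 1, 5 and 18 h of LPS, from light to dark. Bars are the standard error of the fit, filled points have an adjusted p under 0.05 and open points do not; Ifnb1 has no value at 0 h, and at 18 h it stands at 1.33 while Ifnar1 stands at -0.31 and Ifngr1 at -0.72.

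Whether the response to LPS itself differed was tested as an interaction term, genotype by LPS, with 0 h as the baseline, which 4 of the 5 genes allow. At 1 h, no chain was called by edgeR or DESeq2 or had an unadjusted p under 0.05, against 0.0715% of all genes called. At 5 h, the result was the same, against 3.12% of all genes. At 18 h, 2 of 4 were called against 9.43% of all genes, Ifnar1 at -0.36 (SE 0.073, adjusted p = 8.8e-04) and Ifngr1 at -0.92 (SE 0.12, adjusted p = 3.0e-06). The LPS-induced drop of Ifngr1 at 18 h was therefore 1.89 times as large in fold in BMDM-Nur77-KO.

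The differences between the genotypes in the steps from 1 to 5 h and from 5 to 18 h were added after the data were seen. From 1 to 5 h, none of the 5 genes was called by edgeR, against 4.12% of all genes; Ifngr1 (0.32, SE 0.12, adjusted p = 0.12) had an unadjusted p under 0.05 and was the 1 gene called by DESeq2. With knockout replicate 1 of 5 h left out, the value for Ifngr1 was 0.42 (adjusted p = 0.0088). From 5 to 18 h, 3 of 5 were called against 13.6% of all genes. These were Ifnb1, as above, Ifngr1 at -1.02 (SE 0.12, adjusted p = 3.8e-07) and Ifnar1 at -0.22 (SE 0.073, adjusted p = 0.045), the last of which was not called when most single libraries were left out. With knockout replicate 1 of 5 h left out, Ifngr1 was at -1.12 and Ifnar1 at -0.21 (adjusted p = 0.0497).

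The balance of the 2 chains of each receptor was compared per length, as a ratio of RPKM (CPM per kilobase of transcript). Ifngr1 RNA exceeded Ifngr2 RNA before and early after LPS, with ratios of 3.59, 3.88, 3.95 and 3.64 at 0 h in BMDM-WT and 4.69, 4.22, 4.203 and 4.09 in BMDM-Nur77-KO. By 5 h the balance had turned over, to 0.605 ± 0.024 in BMDM-WT and to 0.594, 0.841, 0.914 and 0.794 in the BMDM-Nur77-KO libraries, of which replicate 1 was the lowest. At 18 h, the ratio was 0.642, 0.651, 0.718 and 0.622 in BMDM-WT and 0.402, 0.370, 0.372 and 0.393 in BMDM-Nur77-KO. From more than 3 Ifngr1 transcripts for each Ifngr2 transcript, the cells thus went to fewer Ifngr1 than Ifngr2 transcripts, with no overlap of the genotypes at 18 h.

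The ratio of Ifnar1 to Ifnar2 moved less, and stayed near or above 1. It was 1.22 ± 0.10, 1.47 ± 0.12, 1.78 ± 0.082 and 1.26 ± 0.027 at 0, 1, 5 and 18 h in BMDM-WT. In BMDM-Nur77-KO it was 1.37 ± 0.065, 1.51 ± 0.12, 1.62 ± 0.072 and 1.05 ± 0.094. In 12 exact two-sided permutation tests of the genotypes (3 ratios, the Ifnar2 rows included, at 4 times), the smallest p that 4 against 4 libraries allow, 0.0286, was reached at 18 h by Ifngr1 to Ifngr2 and by Ifnar1 to Ifnar2. It was also reached by Ifngr1 to Ifngr2 at 0 and 1 h and by the Ifnar2 rows at 0 and 5 h, and the adjusted p of each was 0.0571, above the threshold.

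**Figure D4:**
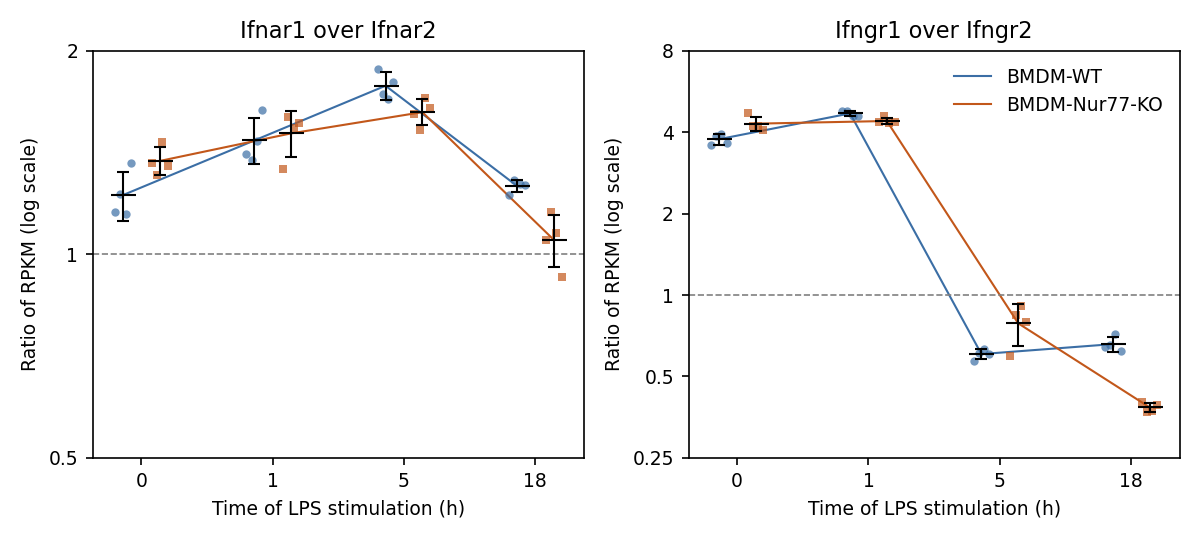
Ratio of the RPKM of the 2 chains of each receptor (y axes, log scale) at 0, 1, 5 and 18 h of LPS (x axes, not to scale in time), Ifnar1 over Ifnar2 on the left and Ifngr1 over Ifngr2 on the right. Points are libraries, bars the mean ± SD of 4 libraries, and the dashed line marks equal levels; the interferon gamma receptor ratio falls from about 4 to below 1, to a mean of 0.658 in BMDM-WT and 0.384 in BMDM-Nur77-KO at 18 h.

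The patterns of the members across the 8 group means of log2 CPM were set beside those of all other genes tested, as a description, since all points share the same libraries and the same time course. Ifnar1 and Ifnar2 had a Pearson correlation of 0.95, and Ifngr1 and Ifngr2 one of -0.94. The genes most like Ifnb1 were Tmem39a (0.979), Nfkbia (0.979), Zfp719 (0.974), Tnf (0.973) and Flrt3 (0.971). Nfkbia encodes the NF-kB inhibitor I-kappa-B alpha, and Tnf a cytokine made within minutes of LPS. Of the times sampled, both were also highest at 1 h, at 1510 and 3740 CPM in BMDM-WT. The genes most like Ifnar1 were Ptgdr2 (0.992), Apaf1 (0.991) and Mfsd1 (0.991), and those most like Ifnar2 were Gm8989 (0.998), Casp8 (0.997) and Lipg (0.997). Ifngr1 was followed most closely by Gpr155 (0.996), Ldlrad3 (0.994) and Mef2c (0.991), and Ifngr2 by Fpr2 (0.999), Itgal (0.998) and Lcn2 (0.998). Mef2c, a transcription factor gene, was at 32.5 CPM in BMDM-WT and 17.7 CPM in BMDM-Nur77-KO at 18 h, in the same direction as Ifngr1. All these genes were picked by a correlation over the same 8 groups, so features shared with the members follow from the choice.

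The wider pathway was read through lists of genes. Of 15 genes that lead from TLR4 to Ifnb1, 8 were higher in the knockout than in the wild type at 18 h and none lower, by edgeR and by DESeq2 (10 had an unadjusted p under 0.05), with a median log2 fold change of 0.27 against -0.01 over all genes, of which 21.7% were called. With library totals, 4 were higher. The largest differences were those of Nfkb1, an NF-kB subunit gene (140 ± 3.51 CPM in BMDM-WT and 235 ± 27.7 CPM in BMDM-Nur77-KO, log2 fold change 0.75, adjusted p = 1.7e-08), and Ticam2, the adaptor that links TLR4 to TRIF (106 ± 5.18 and 157 ± 11.0 CPM, 0.57, adjusted p = 3.0e-07). At the other end, Irf3 was at 22.9 ± 3.56 and 17.5 ± 3.48 CPM (-0.39, adjusted p = 0.12) and Ikbke at 377 ± 56.4 and 368 ± 54.2 CPM (-0.04, adjusted p = 0.88). The Irf3 row of highest mean count, NR_045611, is a noncoding RefSeq transcript of the gene. At 5 h, 1 gene of this list was higher and 4 were lower, against 24.4% of all genes, and 1 and 2 with knockout replicate 1 left out. At 0 h, 1 was lower, a share below the 12.7% of all genes.

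The 6 transducers of the receptors all rose with LPS at 5 and at 18 h in BMDM-WT, where 70.1% and 66.4% of all genes were called. At 18 h, 3 were higher in BMDM-Nur77-KO, against 21.7% of all genes called, and 1 with library totals. Jak2, the kinase bound to IFNGR2, was at 424 ± 58.3 CPM in BMDM-WT and 763 ± 131 CPM in BMDM-Nur77-KO (log2 fold change 0.85, adjusted p = 8.8e-06). Jak1, shared by both receptors, was at 444 ± 64.5 and 542 ± 61.6 CPM (0.29, adjusted p = 0.018), and Stat2 at 1318 ± 42.0 and 1537 ± 62.0 CPM (0.22, adjusted p = 0.040). Tyk2, the kinase of IFNAR1, did not pass the test (0.38, adjusted p = 0.087), nor did Irf9 (0.03, adjusted p = 0.82). At 0 h, Stat2 and Irf9 were lower in BMDM-Nur77-KO. Stat2 was at 87.8 ± 5.92 and 64.6 ± 6.63 CPM (-0.44, adjusted p = 2.8e-04), and Irf9 was at 41.5 ± 2.41 and 33.5 ± 2.59 CPM (-0.31, adjusted p = 0.0030). At 5 h, 1 of the 6 transducers, Tyk2, was lower (-0.56, adjusted p = 0.012), a share below the 24.4% of all genes, and 1 was lower with knockout replicate 1 left out.

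Of 9 genes that restrain the interferon receptors, 5 were higher in the knockout at 18 h, against 21.7% of all genes, and 2 with library totals, a share near that background. Socs1, an inhibitor of JAK kinases, was at 21.2 ± 4.06 CPM in BMDM-WT and 40.7 ± 18.8 CPM in BMDM-Nur77-KO (log2 fold change 0.95, adjusted p = 0.027), and Ptpn2, a phosphatase that acts on JAK1, at 43.6 ± 2.78 and 74.2 ± 22.5 CPM (0.77, adjusted p = 0.0036). Prkd2 (-0.27, adjusted p = 0.34) and Ptpn11 (0.11, adjusted p = 0.28) had the smallest values. At 0 h, 2 of the list were lower (12.7% of all genes called), and at 5 h, 2 were higher and 2 lower (24.4%). At 18 h, the list thus held genes in the same direction as the positive transducers.

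Genes that respond to the receptors were called in opposite directions before LPS and at 18 h. Of 20 type I interferon-stimulated genes, 11 were lower in BMDM-Nur77-KO and none higher at 0 h by edgeR (12 by DESeq2), with a median log2 fold change of -0.56, against 12.7% of all genes called either way. At 1 h, none was called by edgeR or DESeq2 or had an unadjusted p under 0.05, against 6.53% of all genes called. At 5 h, 3 were higher and 3 lower, against 24.4% of all genes, and none with knockout replicate 1 left out, where 4 had an unadjusted p under 0.05. At 18 h, 12 were higher (13 by DESeq2) and none lower, with a median of 0.45, against 21.7% of all genes, and 9 were higher with library totals.

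Ifih1, the RNA sensor MDA5, led this list at 18 h with 631 ± 124 CPM in BMDM-WT and 1173 ± 241 CPM in BMDM-Nur77-KO (0.90, adjusted p = 8.8e-05), followed by the antiviral gene Mx2 with 229 ± 15.3 and 407 ± 23.6 CPM (0.83, adjusted p = 5.9e-05). Bst2 (-0.17, adjusted p = 0.66) and Oas1a (0.10, adjusted p = 0.61) had the smallest values. All 20 genes rose with LPS in BMDM-WT, at 5 h and likewise at 18 h, where 70.1% and 66.4% of all genes were called. The medians were 5.47 and 5.74 on the log2 scale. The interaction relative to 0 h at 18 h was called in 14 of 20, against 9.43% of all genes. All 14 had a larger response in BMDM-Nur77-KO, where the median level at 0 h was also lower.

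Of 14 interferon gamma response genes tested (Ido1 was not), 8 were lower in BMDM-Nur77-KO and none higher at 0 h by edgeR and DESeq2, where 12.7% of all genes were called. At 18 h, when Ifngr1 was lowest in BMDM-Nur77-KO, 10 were higher and 1 lower, against 21.7% of all genes, with 9 and 1 under library totals. Ciita, the master regulator of MHC class II genes, was at 4.44 ± 0.45 and 13.4 ± 3.61 CPM (1.60, adjusted p = 3.3e-06), and Nos2, inducible nitric oxide synthase, at 654 ± 44.2 and 1878 ± 116 CPM (1.52, adjusted p = 2.2e-09). Fcgr1, an Fc receptor gene that is also on the macrophage marker list, was the 1 gene that was lower, at 1634 ± 91.1 and 1327 ± 107 CPM (-0.30, adjusted p = 0.015). H2-Eb1, an MHC class II gene, was at 45.7 ± 5.02 and 56.2 ± 10.6 CPM (0.30, adjusted p = 0.35). Several genes of this list also respond to type I interferon or to LPS directly, so it is no readout of one receptor.

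**Figure D5:**
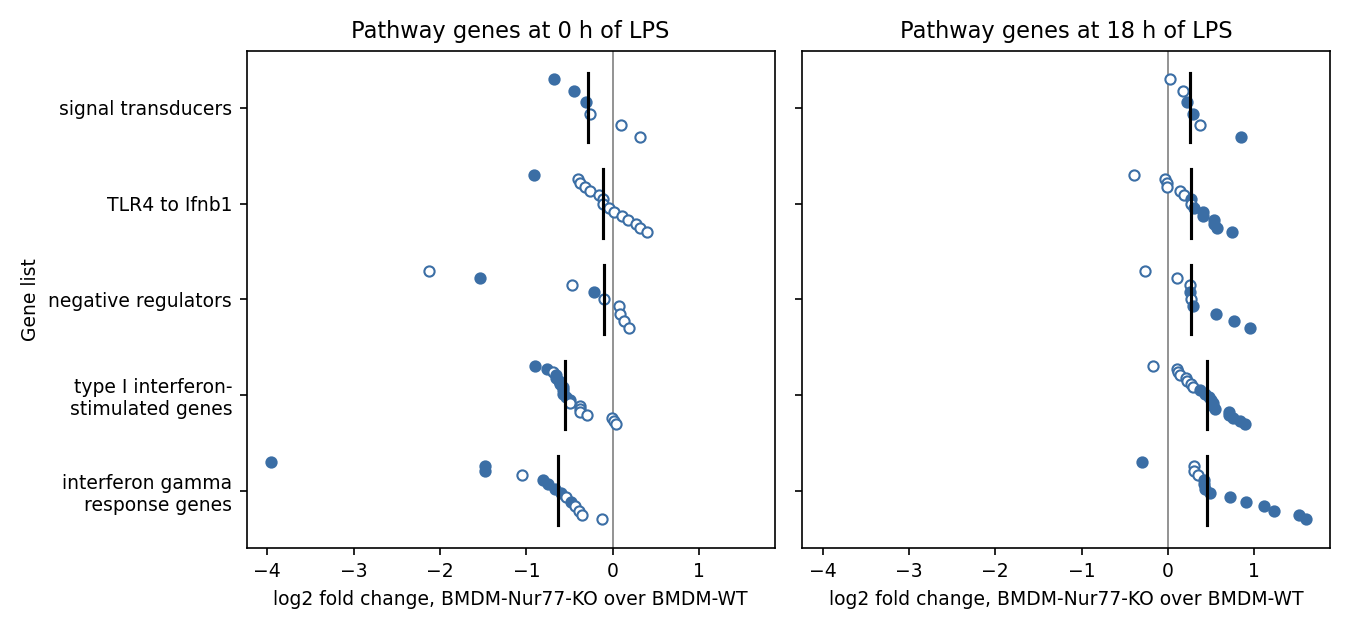
Log2 fold change of BMDM-Nur77-KO over BMDM-WT (x axes) for the tested genes of 5 lists (y axis) at 0 h (left) and 18 h (right) of LPS. Each point is a gene, filled where its adjusted p is under 0.05, and the black line is the median of the list; the medians of the type I interferon-stimulated genes are -0.56 at 0 h and 0.45 at 18 h.

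Most other interferons were next to absent. Of 23 further interferon and receptor genes, 20 were too low to be tested, none of them with more than 4 counts in any library, and 9 had 0 counts in every library. All 13 interferon alpha genes, which lie beside Ifnb1 on chromosome 4, were among the 20. They are near-identical copies, and reads that map to several of them may have been lost in the filter on mapping quality. Ifnlr1, the chain particular to the interferon lambda receptor, had at most 2 counts. Ifng was at 18 h at 0.994 ± 0.39 CPM in BMDM-WT and 1.57 ± 0.55 CPM in BMDM-Nur77-KO (log2 fold change 0.68, adjusted p = 0.16), with at most 33 counts in a library. Il10rb was at 397 ± 13.3 and 443 ± 20.4 CPM (0.16, adjusted p = 0.12), and Il10ra, the other chain of the IL-10 receptor, at 212 ± 12.9 and 248 ± 40.6 CPM (0.23, adjusted p = 0.26). Against 0 h, Ifng, Il10rb and Il10ra, the 3 tested, were called higher at 5 and 18 h in both genotypes. The shares of all genes called were 70.1% and 66.4% in BMDM-WT and 71.4% and 69.5% in BMDM-Nur77-KO. With library totals, 2 of the 3 were higher at 5 h in each genotype, and all 3 at 18 h.

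The 8 genes beside the receptor cluster on chromosome 16 moved in both directions with LPS. Against 0 h in BMDM-WT, 2 were higher and 4 lower at 5 h, with a median of -0.38, where 70.1% of all genes were called, and 4 were higher and 3 lower at 18 h, where 66.4% were. Tmem50b rose at 5 h (33.7 ± 1.91 to 126 ± 7.82 CPM, log2 fold change 1.91), as did Il10rb (0.43), which turned lower with library totals. Itsn1 fell (239 ± 5.41 to 91.6 ± 8.16 CPM, -1.39), as did Gart (-0.77), Donson (-0.76) and Dnajc28 (-3.44), while Son (0.14, adjusted p = 0.066) and Cryzl1 (0.00, adjusted p = 0.98) did not pass the test. Between the genotypes at 18 h, none was called by edgeR (3 had an unadjusted p under 0.05), against 21.7% of all genes, and 2 were called by DESeq2. At 5 h, Dnajc28 (1.27, adjusted p = 0.024), Donson (0.42, adjusted p = 0.040) and Itsn1 (0.29, adjusted p = 0.0015) were higher in BMDM-Nur77-KO, against 24.4% of all genes, and 1 of the 8 was with knockout replicate 1 left out.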

How the data were processed

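The authors aligned paired-end reads of strand-specific libraries to mm10 with HISAT2 2.1.0, kept reads above a mapping quality, had HOMER count tags over each RefSeq transcript, and deposited 1 table of expected counts without normalization. Whether counting used the strand is not given in the sources used here. All values are multiples of 0.5, and 28.6% are not whole. Of 42361 transcript rows, 42203 were named through RefSeq and 65 through GENCODE; 93 unnamed rows (0.233% to 1.37% of tags per library) were left out. Each gene was represented by its row of highest mean count, rounded to whole numbers.

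A gene was tested if its mean RPKM passed 1 in any group, with edgeR 4.0.16 (quasi-likelihood test, TMM, 1 model of 8 groups, R 4.3.3), with Benjamini-Hochberg adjustment over all of them. A gene is called at an adjusted p under 0.05. Alternatives are given in the closing section; DESeq2 1.42.0 was one of them. The genotype differences between LPS times, the chain and Ifnar2 row ratios, and the list counts without 1 library or under other scalings were added after the data were seen. Limits at 3 counts cover counting error only. The scripts were tested on simulated data. Named genes outside the 5 members are the 3 (Ifnb1: 5) most similar patterns, the members of the short lists (1 item is not reported here), and the 2 largest and 2 smallest differences of each other list at 18 h. The members, lists and tests were chosen with earlier results of these data known, and support nothing independently.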

Additional observations from a re-analysis of the deposited data

Results flagged for a closer look

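Within groups of 4 libraries, 1 library lay far from the other three, relative to the range of its group, in 3 of 38 cases tested, of which chance gives about 1 in 20. Ifnar1 in BMDM-Nur77-KO at 0 h was lowest in replicate 2, at 168.7 CPM, against 174.6 to 175.6 CPM in the others of the group. Ifnar2 was lowest in replicate 3 of BMDM-Nur77-KO at 0 h, at 93.1 CPM against 100.1 to 100.6 CPM. It was highest in replicate 1 of BMDM-Nur77-KO at 1 h, at 119.7 CPM against 103.1 to 103.7 CPM.

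The response to LPS differed between the genotypes in 5 tests of that difference. Relative to 0 h, the log2 response at 18 h differed by -0.36 for Ifnar1 and by -0.92 for Ifngr1. These were 2 of the 4 chains, against 9.43% of all genes called, and no chain was called at 1 or 5 h. From 5 to 18 h, a comparison added after the data were seen, the difference was 1.14 for Ifnb1, -0.22 for Ifnar1 and -1.02 for Ifngr1. These were 3 of 5 genes, against 13.6% of all genes called, and the call of Ifnar1 was lost under several alternatives. From 1 to 5 h, none of the 5 was called.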

How the results depend on the processing

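A total of 1632 values were recomputed for 91 results, under 8 other settings and in 32 fits that each left out 1 library. Of these values, 1594 kept their side of the threshold, although 30 of them changed sign without being called. The side of the threshold was kept throughout by 81 results. The calls of Ifnb1, Ifnar1 and Ifngr1 at 18 h were among these. Under DESeq2's Wald test, calls were gained for Ifngr1 between the genotypes at 0 h (0.23), Ifngr2 at 1 h of LPS in BMDM-WT (0.15), Ifngr1 at 1 h in BMDM-Nur77-KO (0.23) and the genotype difference of Ifngr1 from 1 to 5 h (0.34). With library totals, Ifnar2 from 5 to 18 h reversed in BMDM-WT (0.054) and lost its call in BMDM-Nur77-KO (-0.11), Ifnb1 in that step in BMDM-Nur77-KO gained one (0.41), and Ifngr2 at 1 h in BMDM-Nur77-KO lost it (0.066). Ifngr2 at 1 h also lost it without a filter on low counts (0.18), with every transcript (0.16) and in a fit to the libraries compared only (0.18), and ranged from 0.14 to 0.20 with 1 library left out (adjusted p 0.032 to 0.20). The genotype difference of Ifnar1 from 5 to 18 h lost its call with filterByExpr (-0.21), without a filter (-0.20) and with the libraries compared only (-0.21), and ranged from -0.23 to -0.19 with 1 library left out (adjusted p 0.043 to 0.11). The genotype difference of Ifngr1 from 1 to 5 h ranged from 0.26 to 0.42 with 1 library left out (adjusted p 0.0088 to 0.20). With the libraries compared only, Ifngr1 was called between the genotypes at 0 h (0.23) and at 1 h in BMDM-Nur77-KO (0.21), and no longer between the genotypes at 5 h (0.29). The cause of these changes was not tested.

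The samples were not treated as paired by replicate number, since the sources used here state no pairing. The correlations of same-numbered libraries ran from -0.70 to 0.47, which does not settle whether the wells were paired. With a replicate block, Ifngr2 at 1 h in BMDM-Nur77-KO (0.17, adjusted p = 0.051) and the genotype difference of Ifnar1 from 5 to 18 h (-0.22, adjusted p = 0.062) lost their calls.

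Over all genes, the libraries compared only gave 2413 calls against 1417 between the genotypes at 0 h, 1723 against 731 at 1 h, 404 against 2730 at 5 h and 1609 against 2424 at 18 h, 3775 against 2270 for 1 h of LPS in BMDM-WT, 219 against 8 and 170 against 349 for the interactions at 1 and 5 h, and 206 against 461 and 839 against 1525 for the genotype differences from 1 to 5 h and from 5 to 18 h. Library totals gave 3437 against 2270 for 1 h of LPS in BMDM-WT. For the interaction at 1 h and the difference from 1 to 5 h, DESeq2 gave 36 and 761, and the fit without a filter 3 and 286. Ifnb1 rested on 20 to 73 counts a library at 5 and 18 h, which limits the precision of its values there.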
